A study of Mus musculus with 6 samples.

Results

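The Hox genes of the mouse were followed in oligodendrocyte precursor cells (OPCs) of the newborn spinal cord, with and without the surface enzyme GDE3. The members were 38 protein-coding genes of the 4 Hox clusters, taken by symbol and located in the GENCODE M21 annotation (mm10 build), out of 31266 genes that could be quantified. The annotation holds 39 such genes, and the other one is not analysed here. Of the 38 members, 10 lie in HoxA (chr6:52162417-52260880, minus strand), 10 in HoxB (chr11:96194316-96368256, plus strand), 9 in HoxC (chr15:102921103-103036852, plus strand) and 9 in HoxD (chr2:74668310-74765142, plus strand).

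RNA-seq libraries came from A2B5-selected cells of C57BL/6 spinal cords at postnatal day 0.5, with 3 libraries from GDE3 knockout (KO) and 3 from wild-type (WT) animals. The cells of both genotypes grew for 16 h on poly-L-lysine and laminin, with PDGF and CNTF at 10 ng/mL each and forskolin at 5 µM. A2B5 is a surface ganglioside epitope shared by several glial precursors, so the selection does not by itself make a pure OPC population. The labels do not say whether the 3 libraries of a genotype came from separate animals or cultures, so the p-values cover the spread among these libraries, which may be technical.

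Hox genes encode homeodomain transcription factors that give cells of the neural tube and the trunk their position along the head-to-tail axis. They lie in 4 clusters in the order in which they are used: low paralog numbers, at the 3′ end of a cluster, start in the hindbrain, and high numbers, at the 5′ end, are restricted to more caudal levels. In the spinal cord, paralogs 4 to 8 mark cervical and brachial levels, paralog 9 the thoracic cord, and paralogs 10 to 13 the lumbar and sacral cord. Pbx and Meis proteins bind DNA beside Hox proteins, Polycomb proteins keep unused cluster segments silent, and Trithorax proteins keep used ones active. Cells of the spinal cord, glia among them, keep much of the Hox code of the segments they came from.

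The members share their DNA-binding segment, and this is shown first because it limits how well short reads separate them. The in-frame window of 15 bases that was most alike over the members reads ANNNTNTGGTTNCAN, where letters that all 38 share are kept, and it lies in the part of the homeobox that codes for the DNA-recognition helix. It was built from the members, so all 38 hold it by construction, and 0.586% of 22527 genes with a coding sequence hold it in frame on the coding strand. Stretches around the window are shown with the window in capitals for Hoxa5, a member of the most expressed cluster, and Hoxd10, the member with the smallest p between the genotypes. Sequences are those of the GENCODE M21 transcripts.
Hoxa5: caaattAAAATCTGGTTCCAAaacaggagg
Hoxd10: caggtcAAGATTTGGTTTCAAaaccgccga
The longest run of identical coding bases between any 2 members was 52 bases, between Hoxa6 and Hoxb4. Only 1 of the 703 pairs of members shared 50 bases or more. Reads that fall inside such runs could be placed on either gene, so values of these members are uncertain to that extent.

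The clusters also hold microRNA genes, and their mature sequences are shown because the best-known of them have matches in Hox transcripts. The seed (bases 2 to 8) is in capitals, and the sequences are RefSeq's on GRCm38.p6.
miR-196a-5p: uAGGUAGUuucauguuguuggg
miR-196b-5p: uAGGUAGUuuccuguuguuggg
miR-10a-5p: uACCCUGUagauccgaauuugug
miR-10b-5p: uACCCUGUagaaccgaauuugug
The first pair shares a seed, as does the second pair. The letters ACTACCT, which the miR-196 seed can pair with, occurred in the 3′ UTR of 8 of the 38 members (21.1%), against 5.53% of 20778 genes. The 3′ UTR of Hoxa7 held 4 such matches and that of Hoxc8 held 2. The Hoxa7 match with the most bases opposite miR-196a-5p (14 of 22, bases 486 to 507 of the 3′ UTR) is shown with the letters facing the seed in capitals beside a Hoxc8 match (12 of 22, bases 121 to 142).
Hoxa7 site: actactagccctaaACTACCTa
Hoxc8 site: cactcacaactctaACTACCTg
A match of letters is a description of the sequence and shows no repression.

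Values are FPKM, fragments scaled to transcript length and library size, taken from the authors' transcript assemblies and averaged over the exonic bases that a gene shares with no other gene. A base average is a level per length, but annotated bases left unassembled lower it. Levels of different genes can be compared only within that limit. A value of 0 means that no transcript of 300 nt or more was assembled over these bases and is not a measure of absent RNA. Relative depth was 0.760 to 1, and 36.8% of the transcripts of WT replicate 1 were shorter than 300 nt, against 2.16% to 6.61% in the other libraries. Gdpd2, which encodes GDE3, was at 0.667, 1.497 and 1.78 FPKM in KO and at 0, 2.79 and 2.85 in WT. With shorter transcripts kept, WT replicate 1 was at 2.05 FPKM, so that all KO libraries lay below all WT libraries. In the other ways of forming gene values WT replicate 1 was at 0, and with FPKM summed over transcripts the genotypes overlapped, at 3.44, 1.56 and 4.22 in KO and at 0, 3.46 and 3.74 in WT. Gdpd2 therefore checks the genotype labels only in part. All 12 OPC markers were tested and their summed level was 1073 to 1625 FPKM. Neuron markers summed to 306 FPKM in WT replicate 1 and to 136 to 161 FPKM elsewhere, and astrocyte markers to 195 and 260 FPKM in the replicate 1 libraries and to 468 to 737 FPKM elsewhere. The 10 microglia markers summed to 101 to 188 FPKM in KO and 56.7 to 78.6 FPKM in WT. In bulk RNA, fewer cells of a type and less RNA per cell cannot be told apart.

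Members with paralog numbers 6 to 8 and those of HoxA held the largest shares of the Hox level. Summed over a cluster, HoxA members held 54.8% of the Hox FPKM on average, HoxB 21.3%, HoxC 18.3% and HoxD 5.54%. By paralog number, members 6 to 8 held 51.0% (46.4% to 57.5% in single libraries), members 1 to 5 held 24.2% and members 9 to 13 held 24.8%. The HoxA share was 53.9% to 57.0% in KO and 53.1% to 55.9% in WT, so the genotypes overlapped. Of the 38 members, 30 passed the filter of a mean of 1 FPKM over the 6 libraries, 26 had a value in every library and 7 lay above the median of the 12045 genes that passed.

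The expression peak was at paralog 7 of HoxA. Hoxa7, a factor of brachial and thoracic segments, was at 58.8, 57.7 and 55.8 FPKM in KO and at 72.6, 60.9 and 47.4 in WT. Its lowest library lay above the highest library of each other member, and its mean of 58.9 FPKM exceeded that of 91.7% of tested genes. The intron of Hoxa7 (chr6:52216031-52217029) was spliced in assembled transcripts of all 6 libraries, with a summed transcript level of 67.7, 68.2 and 80.6 FPKM in KO and 101, 72.0 and 67.6 FPKM in WT. Hoxa5, a cervical and brachial factor, followed with 24.0, 28.6 and 27.0 FPKM in KO and 17.5, 24.3 and 23.7 in WT. Hoxa6 was at 18.9, 20.2 and 24.2 FPKM in KO and at 17.5, 24.4 and 18.3 in WT. Its range overlapped that of Hoxa5. These neighbours are not independent measurements, because transcripts joining coding bases of Hoxa5 and Hoxa6 were assembled in all 6 libraries.

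The other clusters reached lower peaks. In HoxB the highest member was also a paralog 7 gene, Hoxb7, at 12.2, 12.5 and 9.09 FPKM in KO and 19.2, 11.5 and 11.99 in WT. Hoxb2, a hindbrain and rostral cord factor, was at 9.59, 13.8 and 3.57 FPKM in KO and at 8.22, 9.11 and 7.88 in WT. Hoxb6 was at 5.99, 6.39 and 10.2 FPKM in KO and at 10.7, 6.52 and 11 in WT. The ranges of these 3 HoxB members overlapped, so their order is not firm.

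In HoxC the highest member was a caudal gene. Hoxc10, which marks lumbar segments, was at 12.7, 14.7 and 11.99 FPKM in KO and at 11.5, 17.4 and 13.02 in WT. Hoxc8, a brachial and thoracic factor, was at 12.2, 9.80 and 8.06 FPKM in KO and at 13.9, 10.6 and 8.61 in WT. Hoxc6, a brachial factor, was at 10.9, 14.6 and 8.50 FPKM in KO and at 6.28, 9.61 and 8.71 in WT. The range of each of these HoxC members overlapped that of the other two.

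HoxD was the weakest cluster. Hoxd9 was at 3.92, 4.47 and 2.58 FPKM in KO and at 3.69, 4.60 and 3.72 in WT. Hoxd8 was at 5.13, 1.66 and 5.05 FPKM in KO and at 4.67, 1.48 and 4.93 in WT, low in both replicate 2 libraries, where 49.4% and 45.4% of its bases were assembled against 82.3% to 100% elsewhere. Hoxd10, a lumbar factor needed for hindlimb motor neurons, was at 1.49, 2.26 and 2.19 FPKM in KO and at 2.81, 2.69 and 2.96 in WT.

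From paralog 10 on, levels fell towards the 5′ ends of the clusters. Summed over members and averaged over the 6 libraries, FPKM was 71.6 for paralog 7, 21.2 for paralog 8 and 23.1 for paralog 9. It was 30.1 for paralog 10, 8.96 for paralog 11, 1.73 for paralog 12 and 0.663 for paralog 13. These sums take in 2 to 4 members each. Of the 8 members below the filter, Hoxb1, Hoxd1, Hoxd12 and Hoxd13 were listed at 0 in all 6 libraries. Hoxa13 was assembled in WT replicates 2 and 3 (0.160 and 0.145 FPKM) and Hoxb13 in KO and WT replicate 2 (0.494 and 0.361 FPKM). Hoxc13 was at 0.133, 0.827 and 0.194 FPKM in KO and at 0, 1.06 and 0.611 in WT. Hoxd3 averaged 0.856 FPKM, over the 672 of its 3244 exonic bases that no other gene shares. In KO replicate 2, 6.40% of these bases were assembled. Transcripts joining Hoxd3 to Hoxd4 were assembled in 4 libraries. An intron annotated in Hoxd3 and Gm28230 was spliced in 5 libraries, at summed transcript levels of 1.54 to 5.26 FPKM. The value of Hoxd3 may thus understate its level. At the other end, Hoxb1 and Hoxd1, which act in the hindbrain, were not assembled, while the paralog 2 members Hoxa2 and Hoxb2 were.

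**Figure D1:**
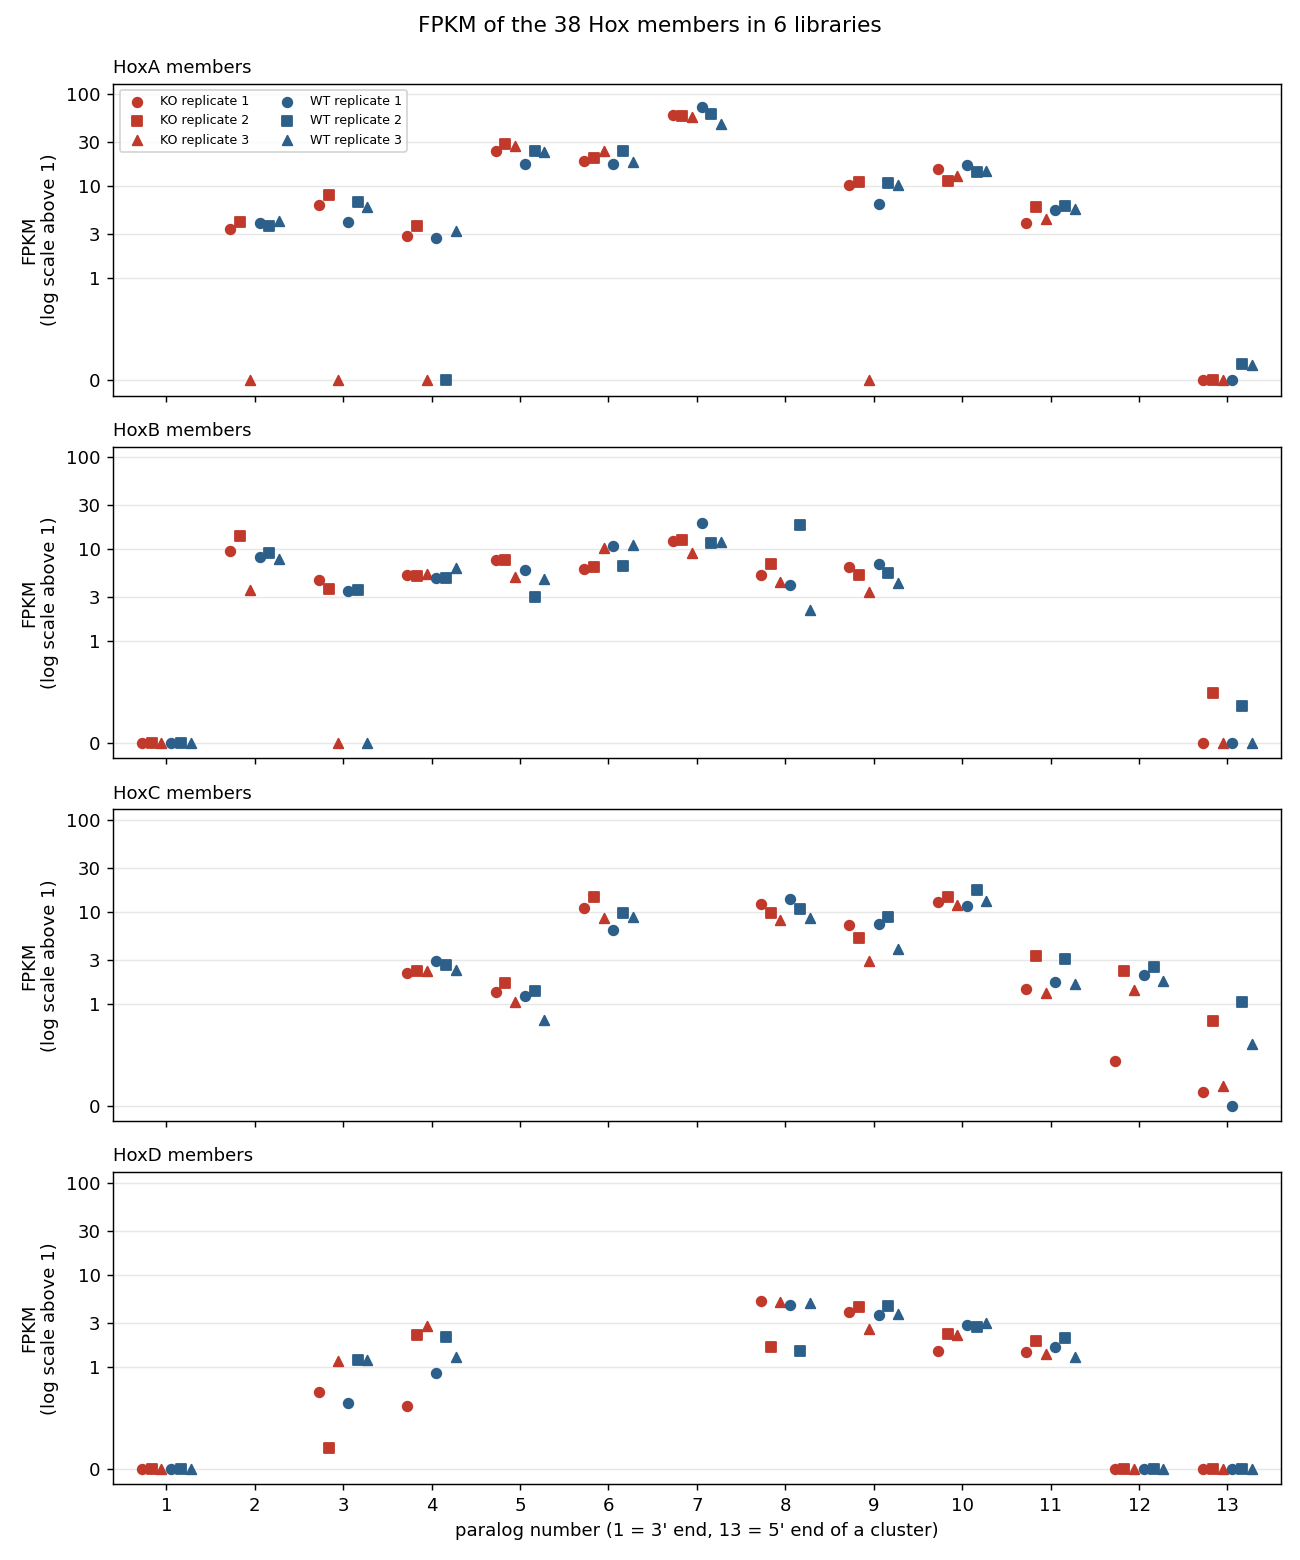
FPKM (vertical axis, linear to 1 and on a log scale above) of the 38 Hox members by paralog number (horizontal axis) in 1 panel per cluster, with 1 point per library, KO in red and WT in blue. Hoxa7 lies above all other members, at 47.4 to 72.6 FPKM, and paralog 13 members lie near or at 0.

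No Hox member passed the test between the genotypes. The limma test on log2(FPKM + 1) with Benjamini-Hochberg adjustment over all 12045 genes called 0 of the 30 tested members at 0.05, against 0.0083% of all genes (1 gene, lower in KO). At an unadjusted p under 0.05 it took 0 members, against 1.62% of all genes. With the replicate number as a block it took 1 member, Hoxa5 (unadjusted p = 0.0308), against 4.23% of all genes, and called 0. The difference (KO minus WT, log2) was above 0 for 9 members and below 0 for 21, with a median of -0.082, against 51.4% of all tested genes below 0 and a median of -0.0055. Without KO replicate 3 the count below 0 was 15 of 30 with a median of -0.0027, and the median was -0.15, -0.19 and -0.20 without KO replicate 1, KO replicate 2 and WT replicate 3. The smallest adjusted p of any member was 0.99986 in limma.

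Among members, Hoxd10 came closest to the threshold. Its KO values of 1.49 to 2.26 FPKM (1.98 ± 0.425, SD, n = 3) all lay below its WT values of 2.69 to 2.96 FPKM (2.82 ± 0.134, SD, n = 3). The limma difference was -0.37 ± 0.16 (SE) log2 units, with an unadjusted p of 0.0612 and an adjusted p of 0.99986. Without KO replicate 1 it was -0.24. Transcripts joining Hoxd10 to Hoxd11 were assembled in 5 of the 6 libraries. Hoxd11, which with the other paralog 11 genes patterns the lumbosacral region, was at 1.45, 1.88 and 1.38 FPKM in KO and at 1.64, 2.07 and 1.29 in WT, and its groups overlapped.

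Hoxc4, a cervical factor at the 3′ end of its cluster, was the other member without overlap. It was at 2.15, 2.25 and 2.25 FPKM in KO and at 2.92, 2.63 and 2.32 in WT, a limma difference of -0.17 log2 units (unadjusted p = 0.248), and -0.11 without WT replicate 1. Its sign turned (0.032) when only assembled bases were averaged. A lack of overlap was found for 5.06% of all tested genes, so 2 of 30 members is near the background.

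The next members by unadjusted p were higher in KO on average but overlapped. Hoxb5, a cervical and brachial factor, was at 7.56, 7.55 and 4.95 FPKM in KO and at 5.95, 3.01 and 4.67 in WT, a limma difference of 0.49 ± 0.25 (SE) log2 units with an unadjusted p of 0.103. In WT replicate 2 only 37.1% of its bases were assembled, against 94.9% to 100% elsewhere, and over assembled bases alone the difference was 0.074. Without WT replicate 2 it was 0.27. Hoxa5 had a limma difference of 0.28 log2 units (unadjusted p = 0.122), with 93.3% to 98.3% of its bases assembled in every library, and without WT replicate 1 it was 0.14 (unadjusted p = 0.321). Hoxc6 had a limma difference of 0.41 log2 units (unadjusted p = 0.126). In WT replicate 1, the lowest library of Hoxc6, 34.2% of its bases were assembled, against 85.7% to 100% elsewhere, and over assembled bases alone its difference was -0.10. It was 0.25 without WT replicate 1 and 0.23 without KO replicate 2.

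Hoxa11, a lumbosacral factor, completed the 5 members with the smallest unadjusted p. It was at 3.93, 5.88 and 4.40 FPKM in KO and at 5.54, 6.12 and 5.66 in WT, so that KO replicate 2 lay within the WT range. The limma difference was -0.25 log2 units (unadjusted p = 0.153). It was -0.15 without KO replicate 1 and -0.39 without KO replicate 2.

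The sign of the difference varied with paralog number, a split into 3 ranges that was chosen after the values were seen. All 11 tested members with paralog numbers 9 to 13 had a lower mean log2 value in KO, with a median of -0.20, against 51.4% of all tested genes below 0. Among paralogs 1 to 5, 6 were above 0 and 5 below, and among paralogs 6 to 8, 3 were above and 5 below. None of these 11 posterior members was called. Without KO replicate 3 the count fell to 6 of 11 with a median of -0.011, and without WT replicate 2 to 8 of 11, so it rests on these libraries. The summed FPKM of paralogs 9 to 13 was 64.8, 68.9 and 44.5 in KO and 66.4, 79.3 and 63.6 in WT. Neighbours in a cluster share transcripts and sequence and are not independent observations.

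**Figure D2:**
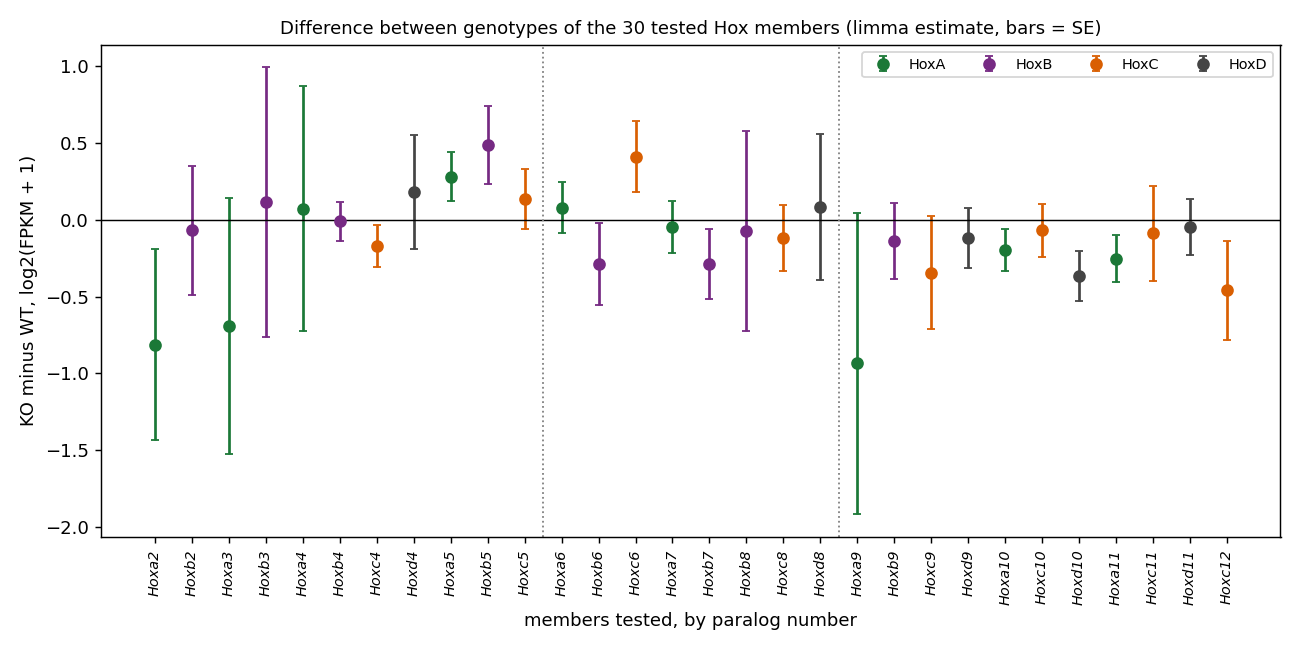
Difference between KO and WT in log2(FPKM + 1) (vertical axis) for the 30 tested members in order of paralog number, coloured by cluster, with bars showing the limma standard error (3 libraries per genotype). Dotted lines part paralogs 1 to 5, 6 to 8 and 9 to 13, and all 11 points of the last range lie below 0, many with bars that reach it.

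Hoxa2, Hoxa3 and Hoxa9 were listed at 0 in a single library, and Hoxa4 and Hoxb3 in a pair of libraries, while well above 1 FPKM in the others. Hoxa2, a hindbrain factor also needed for the identity of the second branchial arch, was at 3.39, 4.10 and 0 FPKM in KO and at 3.99, 3.70 and 4.17 in WT. Hoxa3 was at 6.17, 7.95 and 0 FPKM in KO and at 4.03, 6.75 and 5.94 in WT. Hoxa9, a thoracic factor, was at 10.4, 11.1 and 0 FPKM in KO and at 6.32, 10.8 and 10.2 in WT. In WT replicate 1 only 35.9% of the bases of Hoxa9 were assembled, against 72.4% to 99.4% in the other libraries with a value. For these members KO replicate 3 alone was at 0, and the other 5 libraries were at 3.39 FPKM or more.

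The limma differences of these members rest on that library. The difference of Hoxa2 was -0.81 and that of Hoxa3 was -0.69 log2 units. Without KO replicate 3 they were -0.066 and 0.31. The difference of Hoxa9 was -0.93 log2 units, and 0.25 without KO replicate 3, with the partly assembled WT replicate 1 still in the fit.

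Hoxa4 was at 2.86, 3.72 and 0 FPKM in KO and at 2.70, 0 and 3.23 in WT. Hoxb3 was at 4.61, 3.66 and 0 FPKM in KO and at 3.49, 3.58 and 0 in WT, with a limma difference of 0.11. Each was thus listed at 0 in 1 library of each genotype. Members at 0 in 1 or 2 libraries and at 1 FPKM or more in all others were 5 of 30 (16.7%), against 346 of 12045 tested genes (2.87%). Being at 0 in KO replicate 3 alone held for 3 members (10%) and for 0.349% of tested genes.

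The gap over Hoxa9 extended past its exons. In KO replicate 3, no exon of a transcript of any length or strand overlapped the 7990 bases between the ends of Hoxa9. In the other libraries 3 to 7 transcripts had such exons. No exon overlapped the 2083 bases of Hoxa4 in KO replicate 3 or WT replicate 2 either. In WT replicate 2, an intron of a transcript that joined coding bases of Hoxa3, Hoxa5 and Hoxa6 passed over Hoxa4. The same intron (chr6:52183791-52200836) was spliced in KO replicates 1 and 2 and WT replicate 3, where Hoxa4 was assembled. It was not found in KO replicate 3, so its presence did not go with the zeros of Hoxa4. Introns that span Hoxa9 were not looked for. Across Hoxb3, KO replicate 3 and WT replicate 3 held 5 and 4 transcripts on the opposite strand, against 3 or 4 in the other libraries. Whether the assembly step or the RNA gave these zeros was not tested.

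**Figure D3:**
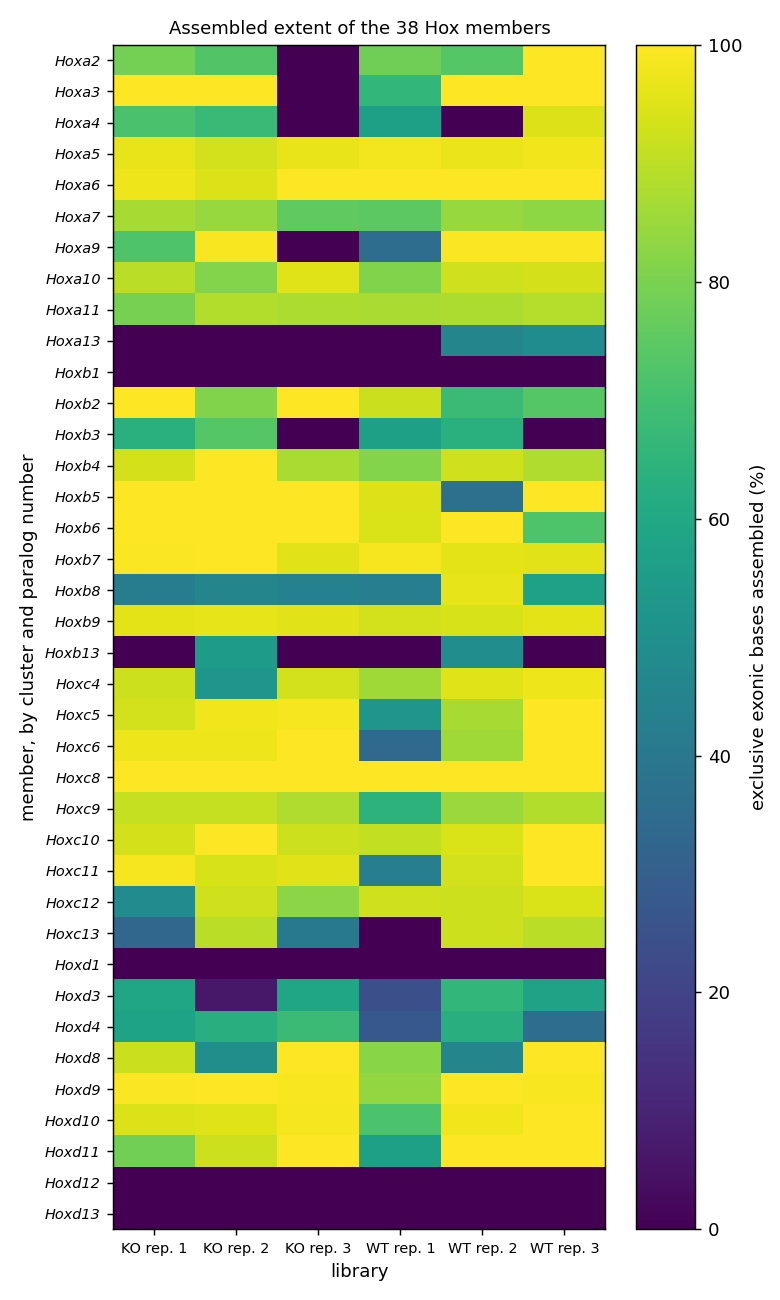
Share of a member's exclusive exonic bases covered by assembled transcripts (colour, 0% to 100%) for the 38 members (rows, by cluster and paralog number) in the 6 libraries (columns). Hoxa2, Hoxa3 and Hoxa9 are at 0% in KO replicate 3 alone, and Hoxb8 is at 96.3% in WT replicate 2 against 42.5% to 57.4% elsewhere.

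Assembled extent also set single libraries apart in other members. Hoxb8, a brachial and thoracic factor, was at 5.25, 6.91 and 4.37 FPKM in KO and at 4.10, 18.2 and 2.17 in WT. WT replicate 2, its highest library, was the only library in which 96.3% of its bases were assembled. Hoxc12 was at 0.438, 2.25 and 1.41 FPKM in KO and at 2.04, 2.49 and 1.75 in WT, and in KO replicate 1, its lowest library, 48.2% of its bases were assembled against 82.6% to 94.5% elsewhere.

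With these gene values, replicate 2 was often the highest library of both genotypes among members. For 20 of 30 members (66.7%) the highest KO and the highest WT library bore the same number. This held for 56.4% of all tested genes, so the count is near the background, and for 54.5% of paralogs 1 to 5. Both were replicate 2 for 13 members (43.3%), against 14.1% of all tested genes. Among paralogs 9 to 13 this held for 7 of 11 members (63.6%), namely Hoxa9, Hoxa11, Hoxc10, Hoxc11, Hoxc12, Hoxd9 and Hoxd11. These shares are descriptions and carry no test.

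For each of the paralog 9 to 13 members just named, in HoxA, HoxC and HoxD, both replicate 2 libraries lay above the other 4. Hoxc11, a lumbosacral factor, was at 1.46, 3.30 and 1.31 FPKM in KO and at 1.73, 3.08 and 1.65 in WT. In WT replicate 1, however, only 42.8% of its bases were assembled, against 93.3% to 99.9% elsewhere. The summed level of transcripts with its annotated intron (chr15:102955208-102956468) was highest in WT replicate 1, at 4.37 FPKM. In KO and WT replicate 2 that level was 2.40 and 3.09 FPKM. The low members Hoxb13 and Hoxc13 were also highest in the replicate 2 libraries of both genotypes. Hoxd8 went the other way, with its lowest values in both replicate 2 libraries.

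The pattern depended on how gene values were formed. Averaging over assembled bases alone left 4 of the 11 posterior members highest in both replicate 2 libraries (11.3% of all genes), and summing FPKM over transcripts left 2 (8.68% of all genes). In KO and WT replicate 2, astrocyte markers summed to 468 and 567 FPKM, neuron markers to 160 and 160 and OPC markers to 1190 and 1483. These sums lay inside the range of the other libraries. Neural crest and Schwann markers summed to 73.6 and 67.8 FPKM there, below the 80.1 to 93.2 FPKM elsewhere. KO replicate 2 was also lowest for vascular and meningeal markers (53.1 FPKM) and motor neuron markers (10.98 FPKM). WT replicate 2 was lowest for microglia markers (56.7 FPKM). The part of any cell type in the pattern was not tested. The labels do not say what a shared number stands for.

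**Figure D4:**
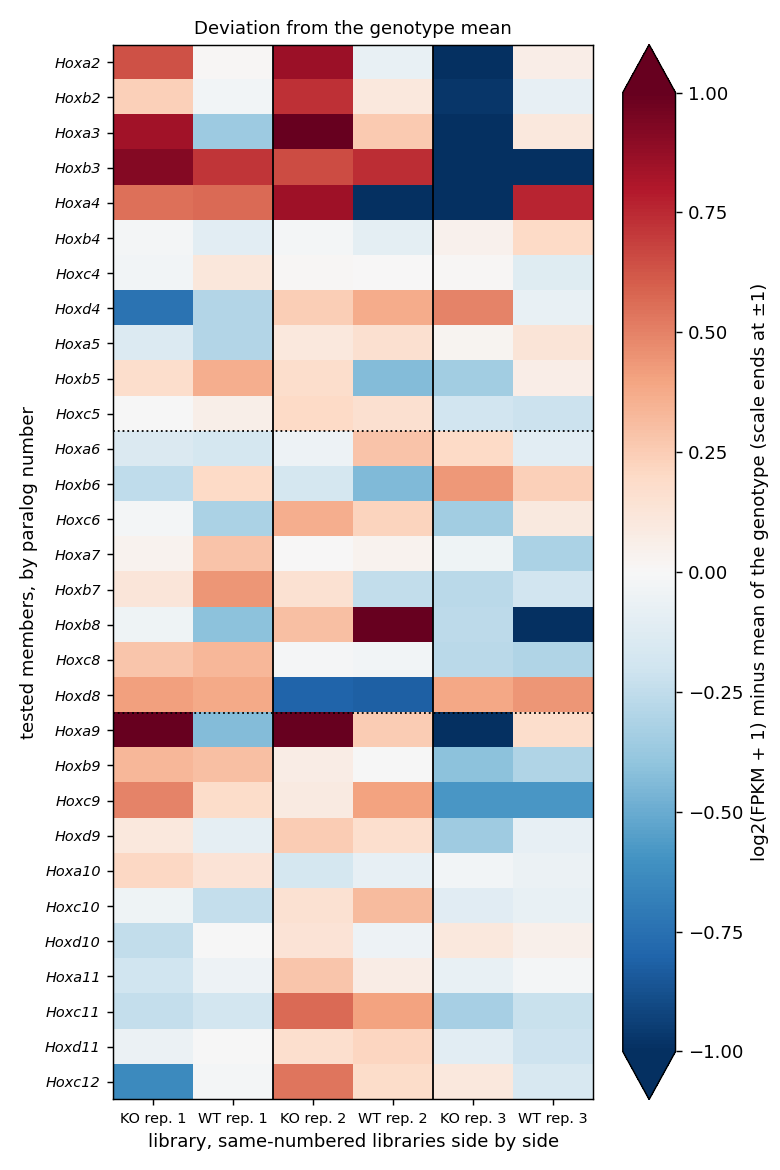
Deviation of log2(FPKM + 1) from the mean of the library's genotype (colour, ending at ±1) for the 30 tested members (rows, by paralog number) with same-numbered KO and WT libraries side by side (columns). In the lowest block, paralogs 9 to 13, 7 of 11 members are highest in replicate 2 of both genotypes, while Hoxd8 is low there.

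Noncoding genes inside the clusters were weakly represented. Of 36 annotated noncoding genes other than microRNAs, 18 could be quantified, 13 of them on the strand opposite to the cluster, and 4 passed the filter. The limma test called 0 of these 4, and 0 had an unadjusted p under 0.05. Hoxa11os, transcribed opposite Hoxa11 (chr6:52244393-52249799), was at 2.54, 2.36 and 2.70 FPKM in KO and at 3.13, 1.91 and 3.07 in WT. Both of its annotated introns at 52246201-52246662 and 52246809-52249083 were spliced in all 6 libraries. Library strandedness was not stated, so reads of unspliced parts of Hoxa11 and Hoxa11os cannot be told apart.

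Gm28309, a noncoding gene on the HoxD strand that overlaps Hoxd10, was at 1.80, 4.46 and 1.68 FPKM in KO and at 1.68, 5.64 and 2.38 in WT. It was thus highest in both replicate 2 libraries. Gm15050, inside the span of Hoxa3 on the opposite strand, averaged 1.62 FPKM. Hotairm1, known from myeloid cells for its link with the 3′ end of HoxA, averaged 1.49 FPKM and was at 0.360 and 0.5001 FPKM in the replicate 1 libraries against 1.83 to 2.14 FPKM elsewhere. Gm53 averaged 0.742 FPKM. Hotair, the noncoding gene between Hoxc11 and Hoxc12, averaged 0.157 FPKM. Haglr was assembled in WT replicate 2 only (0.185 FPKM), and Hoxd3os1 was listed at 0 in all 6 libraries.

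The microRNA genes of the clusters were seen only inside longer transcripts. A transcript spanning the Mir196b hairpin, inside the annotated span of Hoxa9, was assembled in KO replicate 2 (15.3 FPKM) and in WT replicates 2 and 3 (7.25 and 2.86 FPKM). In KO replicate 2 this was the transcript that joined Hoxa9 to Hoxa10. The Mir196a-1 hairpin was covered in 3 libraries (1.01 to 1.24 FPKM), the Mir10a hairpin in 1, and those of Mir10b and Mir196a-2 in 0. These are values of host transcripts and not of mature microRNAs, whose sequences are given above.

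No other gene of the pathway was called. Over 6 lists with 102 genes, 76 were tested, 0 were called higher and 0 lower by limma, and 2 had an unadjusted p under 0.05, against 1.62% of all genes. The genotypes did not overlap for 5 of the 76, against 5.06% of all genes, so this count is near the background. All 11 Hox cofactors of the TALE class were tested. Pbx4 was at 1.23, 2.87 and 2.36 FPKM in KO and at 3.65, 3.26 and 4.21 in WT. Pbx3 was at 16.7, 12.7 and 13.5 FPKM in KO and at 16.8, 17.4 and 17.0 in WT. Both had KO values below all WT values, with unadjusted limma p of 0.0409 and 0.0924. Pknox2, the highest cofactor, ranged from 19.4 to 36.1 FPKM.

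Several upstream inputs of the axial code were not assembled. Cdx1, Cdx2 and Cdx4, which open the posterior Hox genes in the early embryo, were listed at 0 in all 6 libraries, as were T and Fgf8. Gdf11, a ligand that sets the trunk-to-tail transition, was at 13.3 to 13.9 FPKM in KO and 15.1 to 16.1 FPKM in WT, with an unadjusted limma p of 0.111. Fgfr1 was at 35.5 to 38.8 FPKM in KO and 26.8 to 33.8 FPKM in WT, with an unadjusted limma p of 0.113. Of 18 genes of the retinoic acid pathway, a rostral input of the Hox clusters, 13 were tested. Dhrs3, a retinaldehyde reductase, was at 3.05, 3.16 and 3.08 FPKM in KO and at 2.45, 2.11 and 1.88 in WT, without overlap, with an unadjusted limma p of 0.0274 and an adjusted p of 0.99986.

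Genes that maintain the Hox state were broadly expressed. Of the 28 Polycomb genes 27 were tested, with 8 above 0 and 19 below, and of the 16 Trithorax and related genes 16 were tested, with 9 above and 7 below. The smallest unadjusted limma p among Polycomb genes were those of Suz12 (0.0766) and Bmi1 (0.0804), both subunits of Polycomb complexes. Bmi1 was at 16.5, 11.3 and 9.02 FPKM in KO and at 15.5, 16.8 and 17.5 in WT. Of its bases 37.9% and 34.9% were assembled in KO replicates 2 and 3, against 91.7% to 97.2% elsewhere. For Suz12 these shares were 46.7% and 39.1%, against 83.3% to 97.8% elsewhere. Rbbp4, the highest Polycomb gene, ranged from 93.6 to 122 FPKM. Ctcf, which bounds active and silent Hox segments, was at 32.1, 26.9 and 27.3 FPKM in KO and at 22.8, 15.6 and 27.8 in WT. Psip1, the highest gene of the Trithorax list, ranged from 51.2 to 64.9 FPKM.

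Factors of the forebrain and midbrain were nearly unassembled. Of 12 such genes, among them Otx2 and Emx2, 10 were listed at 0 in all 6 libraries and 0 passed the filter. Lhx2 reached at most 0.481 FPKM and En2 at most 0.447 FPKM.

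Of the 24 protein-coding genes nearest to the clusters, 3 on each side, 19 averaged 1 FPKM or more. Evx1 and Evx2, homeobox genes next to the 5′ ends of HoxA and HoxD, were listed at 0 in all 6 libraries, as were Calcoco2 and Skap1 beside HoxB. Mtx2, 60.7 kb from the 3′ end of HoxD, averaged 13.6 FPKM, and Lnpk, 88.9 kb from its 5′ end, averaged 3.80 FPKM. Skap2, 143 kb from the 3′ end of HoxA, averaged 19.7 FPKM. Cbx3, also on that side, was listed at 0 in KO replicates 2 and 3 and at 75.3 to 103 FPKM in the other 4 libraries.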

How the data were processed

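The 38 members and the gene lists were chosen with earlier results of these data known. The authors deposited 1 transcript assembly per library, in which each transcript has its exons, coverage and an FPKM (a value of the other kind, held in attribute text). Per the submitters' processing notes, the tools were Cufflinks 2.2.1, TopHat2 2.1.1, Cuffdiff 2.2.1 and FastQC, and the build was mm10. The deposited files hold no read counts, so only relative depth (coverage per FPKM, 0.760 to 1) is known, and no counting interval was given.

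Transcripts of 300 nt or more were matched by position to GENCODE M21 (basic). FPKM was taken from transcripts of the gene's strand or of no strand, summed per base and averaged over exonic bases that no other gene shares on either strand (at least 200). Partial assembly of a gene lowers its value. The 12045 genes averaging 1 FPKM or more were tested with limma 3.58.1 in R 4.3.3 on log2(FPKM + 1), empirical Bayes with a trend, two-sided, with genotype as the only term and Benjamini-Hochberg adjustment at 0.05. Differences on this scale understate those of low genes. The code was tested on simulated data.

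Values in every library were given by rule for the 3 highest members of each cluster and the 5 smallest p. The rule also took members without overlap between genotypes. It further took members at 0 in 1 or 2 libraries and at 1 FPKM or more in the others. From each list the smallest p and the highest gene were named. Then came the 5 highest noncoding genes and the flanking genes at 1 FPKM or more. Of these flanking genes only some are given. Some items that this rule names are not reported here. The choice of all others followed a look at their values.

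Replicate numbers come from the titles. Deviations from the genotype mean correlated over genes between KO and WT libraries of the same number (r = 0.369, 0.197 and 0.293) and less between libraries of different numbers (-0.277 to 0.0234), with genes as points that are not independent. Centring on the genotype mean pushes values for different numbers below 0 where those for the same number are above 0. The contrast between them therefore does not by itself establish a pairing. The fit with the number as a block is given as an alternative to the unpaired one. Alternatives covered pseudocounts, filters, scaling, the replicate block, the identifier number, other gene values and left-out libraries.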

Additional observations from a re-analysis of the deposited data

How the results depend on the processing

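Across all 19 alternatives, limma called 0 Hox members higher and 0 lower in KO, and the smallest adjusted p of a member ranged from 0.809 (replicate block) to 0.99999 (assembled bases only). The replicate block, which pairs same-numbered libraries, left 0 members called and changed no member's call, with 1 member, Hoxa5, at an unadjusted p under 0.05 (0.0308, against 4.23% of all genes). With a number from the library identifiers as a term, which sets replicate 1 of both genotypes apart, Hoxd10 (0.0365) and Hoxa5 (0.0266) were under 0.05 unadjusted, as were Hoxb5 (0.0494) and Hoxc6 (0.0477) without KO replicate 3, Hoxb5 (0.0428) without WT replicate 1 and Hoxa11 (0.0320) without KO replicate 2; none was called. Leaving out each library in turn gave 0 members called in either direction, and a HoxA share of 54.4% to 55.1%. Over coding bases only, the HoxA share was 50.8% and the HoxD share 7.76%.

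The sign of several member differences turned, none of them called: Hoxc6 with FPKM summed over transcripts (-0.094) and over assembled bases only (-0.10), Hoxc4 over assembled bases only (0.032), Hoxa9 with the sum (0.13), Hoxa7 without replicate pair 1 (0.078) and Hoxb3 without the length minimum (-0.10). On leaving out single libraries, Hoxa7 ranged from -0.21 to 0.094, Hoxa3 from -1.27 to 0.31, Hoxa9 from -1.55 to 0.25 and Hoxb3 from -0.61 to 0.90. The cause was not tested where the alternative does not itself show it. Posterior members (paralogs 9 to 13) with a lower mean in KO numbered 6 to 11 of 11 on leaving out single libraries, with 6 of 11 without KO replicate 3, and were 6 of 6 at a mean of 5 FPKM or more.

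Over all genes, 1 was called lower and 0 higher in KO. The lower count was 0 with pseudocounts of 0.1 and 5, a mean of 5 FPKM or more, the replicate block, FPKM summed over transcripts and shared bases kept, and 2 over assembled bases only. Without replicate pair 1 there were 18 higher and 9 lower. Leaving out single libraries gave 0 to 11 higher, most of them without KO replicate 1, and 1 to 6 lower. These alternatives were written with earlier results known, and those on paralogs 9 to 13 were added after seeing the data. Depth is known only relatively, so no detection limit was set, and partial assembly of a member lowers its value.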
